A study of Mus musculus with 6 samples.

Results

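The Hox genes of the mouse lie in 4 clusters, and the accessibility of every ATAC-Seq site in them was compared between HAT1+/+ and HAT1-/- primary fibroblasts. A site belonged to a cluster when its midpoint lay in a fixed mm10 window, which was chr6:52140000-52280000 for HoxA, chr11:96180000-96380000 for HoxB, chr15:102910000-103050000 for HoxC and chr2:74650000-74780000 for HoxD. By this rule 184 of the 229903 sites in the deposited table were Hox sites, 49 in HoxA, 63 in HoxB, 35 in HoxC and 37 in HoxD. The 500 kb on each side of each window, with 495 sites in all, served as flanks. Of the genes in the windows, 38 Hox genes were described as members. They were arranged by paralogue group and divided into anterior (groups 1 to 3, 7 members), central (groups 4 to 8, 15 members) and posterior (groups 9 to 13, 16 members) classes.

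Hox genes encode homeodomain transcription factors that give cells their position along the body axis. In each mammalian cluster the genes share a direction of transcription, and their order along the chromosome follows the order in which they are switched on in the embryo, from group 1 towards group 13. Polycomb complexes keep silent Hox genes compact, trithorax proteins and retinoic acid open them, and fibroblasts retain a Hox pattern that reflects the part of the body they came from.

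HAT1 is the acetyltransferase that modifies newly made histone H4 before its assembly on replicated DNA. The samples were 3 HAT1+/+ (labelled HAT1 WT) and 3 HAT1-/- (labelled HAT1 KO) lines of primary mouse embryonic fibroblasts (pMEFs) of the C57bl6 strain, and all 6 were grown in the same serum-supplemented medium. The lines came from mid-gestation embryos without their internal organs, so fibroblasts of many body levels were mixed in each, and a site open in fewer cells cannot be told apart from a site less open in every cell. In ATAC-Seq a transposase inserts adaptors into accessible DNA, so that the reads of a site measure how accessible it is.

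The authors deposited, for each site, the log2 of the mean normalized reads over the 3 lines of a genotype, here called its level. The values of single lines were not used here, so neither a spread between lines nor a test could be given. A difference is the HAT1-/- level minus the HAT1+/+ level, is on the log2 scale, and is a description of 2 deposited means. Sites of a cluster came from the same lines and are not replicates. Levels were low, since the median Hox site had 17.9 normalized reads in HAT1+/+ and 16.6 in HAT1-/- cells, and the depth of each line is unknown.

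As a check of the cells, 10 of 10 fibroblast marker genes had a promoter site, with a median HAT1+/+ level of 6.87, below the 7.19 of all protein-coding genes with a promoter site. The collagen genes Col1a1 and Col1a2 had levels of 7.03 and 7.45, and the defining marker at the lowest level was Lum, at 2.22 in HAT1+/+ and 3.51 in HAT1-/- cells. Of 11 markers of blood, endothelium, epithelium, pluripotent cells and neurons, 10 had a site, with levels of 2.65 to 6.96 and a median of 4.86. Their median difference was 0.13, with 6 above 0 and 4 below. Both blood markers were higher in HAT1-/- cells, by 0.65 (Ptprc) and 0.59 (Spi1), as were both endothelial markers, by 0.06 (Pecam1) and 0.48 (Cdh5). The fibroblast genes Col3a1 and Dcn were higher by 0.78 and 0.74, and the fibroblast list had a median difference of -0.04, with 5 of 10 above 0. The part of these markers in the Hox values was not tested. Hat1 itself had 3 sites, and the promoter site was at 7.69 in HAT1+/+ and 7.90 in HAT1-/- cells, and the other sites were at 3.65 and 4.13 and at 4.46 and 1.77. Which part of Hat1 the HAT1-/- allele lacks is not given in the sources used here, so these sites are no check of the genotype labels.

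The 7 Hox sites whose difference reached 1 in either direction were 133 to 336 bases long, and at this cutoff they divided by CpG content. The 4 that were lower in HAT1-/- cells had a CpG content, as observed over expected, of 0.17 to 0.46, and the 3 that were higher had 0.54 to 0.92. These sites were picked by their differences, so this is a description of 7 sites. Just inside the cutoff the division did not hold. Sites higher by 0.92 (HoxD) and 0.90 (HoxB) had a CpG content of 0.07 and 0.12. HoxA sites at -0.94 and -0.86 had 0.88 and 0.95. Other sites kept to it, such as HoxA sites at 0.88 and -0.99 with 0.86 and 0.33. The 5 of them that are no longer than 300 bases are printed from the GRCm38 assembly, which is mm10, with each CpG in capitals.

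Intron of Hoxa3, lower, chr6:52176991-52177151, plus strand: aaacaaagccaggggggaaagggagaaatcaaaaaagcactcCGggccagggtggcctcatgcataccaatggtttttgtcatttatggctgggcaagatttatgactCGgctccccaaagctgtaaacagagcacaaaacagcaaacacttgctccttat
Between Hoxb13 and Hoxb9, lower, chr11:96249633-96249799, plus strand: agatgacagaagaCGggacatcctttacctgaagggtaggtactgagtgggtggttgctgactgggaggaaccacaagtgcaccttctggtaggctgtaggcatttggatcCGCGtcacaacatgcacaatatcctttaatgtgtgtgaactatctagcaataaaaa
Intron of Hoxc4, lower, chr15:103021131-103021263, plus strand: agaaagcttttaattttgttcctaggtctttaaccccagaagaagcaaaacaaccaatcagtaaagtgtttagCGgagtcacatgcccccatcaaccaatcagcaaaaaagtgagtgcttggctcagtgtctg
Coding exon of Hoxa7, higher, chr6:52216922-52217116, plus strand: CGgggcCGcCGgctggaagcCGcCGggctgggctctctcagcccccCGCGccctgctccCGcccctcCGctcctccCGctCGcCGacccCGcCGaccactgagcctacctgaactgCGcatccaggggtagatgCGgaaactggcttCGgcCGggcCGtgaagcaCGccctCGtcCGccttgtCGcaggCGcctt
Intron of Hoxa10, higher, chr6:52233614-52233875, plus strand: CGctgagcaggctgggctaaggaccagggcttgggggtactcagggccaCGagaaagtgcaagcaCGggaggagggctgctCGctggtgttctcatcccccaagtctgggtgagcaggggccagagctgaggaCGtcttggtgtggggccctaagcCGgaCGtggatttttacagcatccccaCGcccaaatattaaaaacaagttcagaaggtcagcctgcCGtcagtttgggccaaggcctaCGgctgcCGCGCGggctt

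The 3 lower sites printed hold 2, 3 and 1 CpG, and the higher sites hold 24 and 13. Around the starts of the genes the CpG content was high in members of either direction. Of the 38 members, 22 were matched to a RefSeq promoter (GRCm38), taken as the 250 bases before and the 50 bases after the gene's start, and 12 of these 22 (54.5%) were CpG-rich, with at least 0.6 of the expected CpG, against 35.8% of all 32851 RefSeq promoters. Their median was 17.5 CpG per promoter, against 7.0 over all. Hoxa2, which patterns the hindbrain and its neural crest, and Hoxa5, which acts in the cervical and upper thoracic region and in the lung, had lower promoter sites in HAT1-/- cells. Hoxa13 and Hoxd13, which pattern the digits and the hindmost body, had higher ones. Their RefSeq promoters, picked for these differences, are printed with each CpG in capitals. A RefSeq promoter and the promoter site of the same gene need not be the same DNA, and those of Hoxa13 do not overlap.

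Hoxa2, chr6:52164782-52165081, minus strand: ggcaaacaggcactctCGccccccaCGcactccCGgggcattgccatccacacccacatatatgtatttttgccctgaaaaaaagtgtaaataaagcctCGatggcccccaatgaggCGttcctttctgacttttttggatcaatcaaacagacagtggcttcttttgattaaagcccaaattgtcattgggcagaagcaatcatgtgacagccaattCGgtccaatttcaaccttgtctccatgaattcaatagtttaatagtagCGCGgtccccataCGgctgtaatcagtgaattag
Hoxa5, chr6:52204538-52204837, minus strand: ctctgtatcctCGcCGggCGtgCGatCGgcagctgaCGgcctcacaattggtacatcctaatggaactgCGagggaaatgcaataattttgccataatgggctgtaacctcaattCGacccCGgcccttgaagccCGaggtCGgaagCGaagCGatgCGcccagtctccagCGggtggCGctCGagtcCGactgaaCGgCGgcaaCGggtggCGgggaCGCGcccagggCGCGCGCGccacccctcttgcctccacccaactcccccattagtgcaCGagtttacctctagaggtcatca
Hoxa13, chr6:52260831-52261130, minus strand: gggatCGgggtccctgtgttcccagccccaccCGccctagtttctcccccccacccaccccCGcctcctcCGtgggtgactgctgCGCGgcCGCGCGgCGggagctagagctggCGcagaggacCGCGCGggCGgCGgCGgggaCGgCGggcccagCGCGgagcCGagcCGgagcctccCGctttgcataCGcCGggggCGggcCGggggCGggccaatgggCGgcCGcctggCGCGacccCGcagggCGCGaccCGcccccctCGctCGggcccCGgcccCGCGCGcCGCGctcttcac
Hoxd13, chr2:74667975-74668274, plus strand: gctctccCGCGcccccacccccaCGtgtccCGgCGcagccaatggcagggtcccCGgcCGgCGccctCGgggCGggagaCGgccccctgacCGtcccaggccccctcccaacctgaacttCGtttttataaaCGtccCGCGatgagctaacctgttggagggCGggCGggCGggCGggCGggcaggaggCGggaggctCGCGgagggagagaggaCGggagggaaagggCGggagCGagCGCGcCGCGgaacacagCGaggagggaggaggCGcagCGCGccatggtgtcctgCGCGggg

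They hold 9, 29, 45 and 37 CpG in this order. Members outside this choice did not follow such an order, since the RefSeq promoters of Hoxa9 and Hoxd8, whose promoter sites were higher, hold 4 and 6 CpG and that of Hoxa3, whose site was lower, holds 20. The Hoxa9 promoter does not overlap its site either. Both strands of all 184 sites were searched for the letters CCANNAGGG, the core bound by the boundary protein CTCF. They occurred in 18 Hox sites (9.78%), in 9.90% of flank sites and in 8.18% of all sites, and of the HoxA sites 3 held them. These 3 are printed with 10 bases on each side and the match in capitals. HoxA was picked for this after the sign of the difference was seen to change along it. The differences at these sites were 0.02, 0.06 and 0.35, and a match describes the letters only.

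Coding exon of Hoxa3, chr6:52170504-52170532, minus strand: acaagaaagaCCAGAAGGGcaaaggcatg
Between Hoxa6 and Hoxa7, chr6:52212671-52212699, plus strand: accccagaggCCAGTAGGGaacagtagaa
Coding exon of Hoxa13, chr6:52260075-52260103, minus strand: ttgctttctaCCATCAGGGctacgcagcc

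Sites were packed more densely in the clusters than in their pooled flanks. HoxA had 350.0 sites per Mb against 96.0 in its flanks, which is 3.65 times as many, and HoxD had 284.6 against 89.0, a ratio of 3.20. In HoxB the ratio was 2.28 (315.0 against 138.0 sites per Mb) and in HoxC 1.45 (250.0 against 172.0). Sites covered 8.46 to 11.1% of the clusters and 2.63 to 5.93% of the flanks. The longest stretch without a site was 26.8 kb in HoxB, between Hoxb13 and Hoxb9, where no other member lies. On the group 1 side of HoxC the flank had 234.0 sites per Mb, close to the cluster itself, and on the group 13 side 110.0. HoxC, with the lowest ratio, had both the densest flanks and the fewest sites per Mb of the 4 clusters.

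Accessibility per site did not set the clusters apart in the same way. In HAT1+/+ cells the median level was 4.34 in HoxA, 4.32 in HoxC, 4.08 in HoxB and 3.83 in HoxD, against 3.86 over all sites. HoxA stood above its flanks by 0.79, HoxB by 0.31 and HoxD by 0.27, and HoxC was 0.21 below its flanks, whose median was 4.53. By side, HoxC was level with its group 13 flank (4.31) and below its group 1 flank (4.60). The HoxD value was -0.02 in a window trimmed to the member genes and 0.01 per kb of site width. In HAT1-/- cells the medians were 4.27, 4.27, 3.75 and 4.08 for HoxA, HoxC, HoxB and HoxD, so HoxB was then the lowest of the 4 and HoxD was no longer so. HoxB lay below its flanks by 0.12 in HAT1-/- cells, and HoxD above its own by 0.52. The signs for HoxC and for HoxB in HAT1-/- cells depended on the width of the flank.

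**Figure D1:**
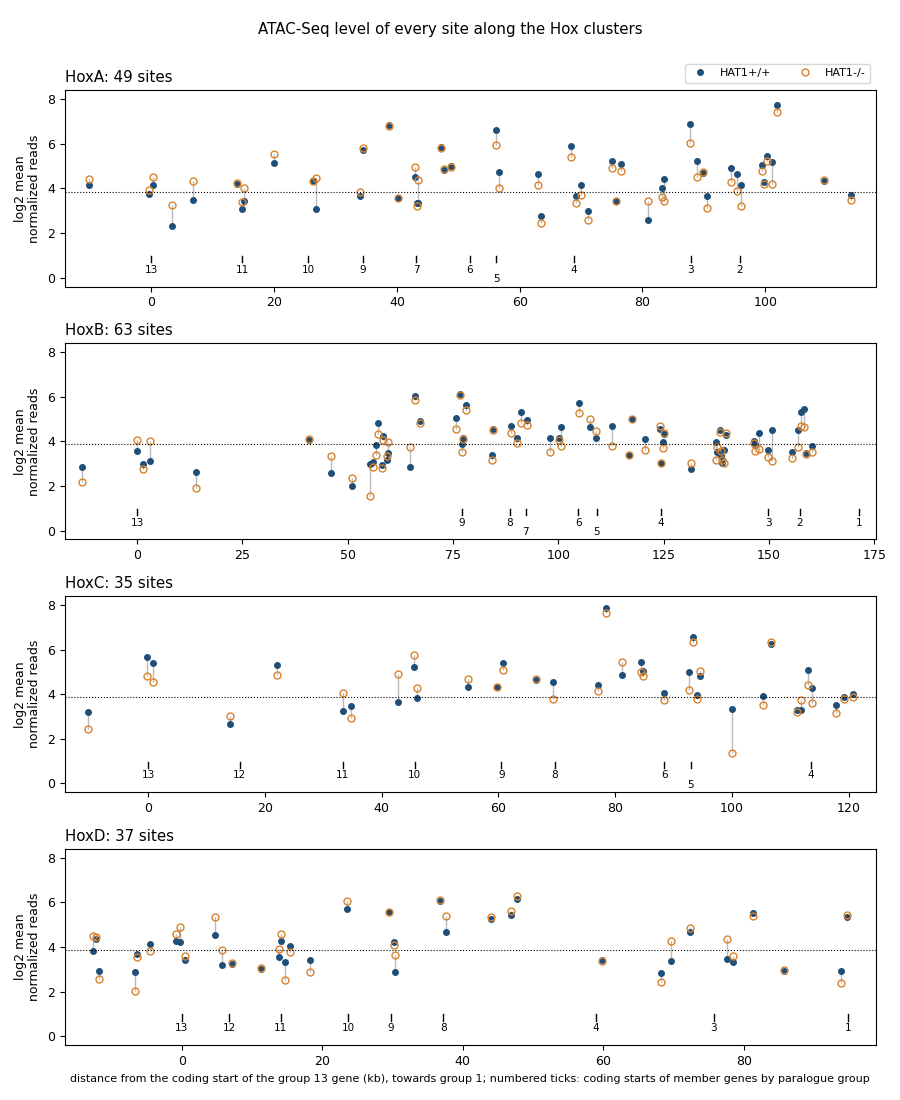
The ATAC-Seq level (log2 mean normalized reads, vertical axis) of every site of HoxA, HoxB, HoxC and HoxD is plotted against its distance in kb from the coding start of the group 13 gene, with filled points for the HAT1+/+ mean, open points for the HAT1-/- mean, a grey line joining both, numbered ticks at the coding starts of the members and a dotted line at the HAT1+/+ median of all sites (3.86). Most sites lie between 3 and 6, and a few high sites stand out, up to 7.85 in HoxC.

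The highest levels were at a few sites in each cluster. In HoxC the site chr15:102998996-103000266, in introns of Hoxc5 and Hoxc6, was the highest Hox site of all, at 7.85 in HAT1+/+ and 7.62 in HAT1-/- cells. Second in HoxC was the coding exon of Hoxc5 (6.55 and 6.34). In HoxA the highest site lay 6.1 kb from the coding start of Hoxa2, at the group 1 end (7.73 and 7.42), and the next was the coding start of Hoxa3 (6.91 and 6.05). In HoxB the highest were a site beside the start of Hoxb9 (6.11 and 6.07) and another 11 kb from it, in an intron of the noncoding gene Gm53 (6.04 and 5.86). HoxD peaked in the antisense gene Hoxd3os1 (6.16 and 6.29) and at Hoxd8 (6.05 and 6.11). The Gm53 site lies between Hoxb9 and Hoxb13, the other 7 lie at group 9 or nearer to group 1, and in 7 of the 8 the genotypes differed by 0.31 or less.

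The lowest sites were far weaker, and 5 of the 8 lowest, taking 2 per cluster, were intergenic. The lowest of all in HAT1+/+ cells was chr11:96245367-96245539, 26.1 kb from Hoxb9, at 1.99 (4.0 normalized reads) and 2.37 in HAT1-/- cells. HoxA reached down to 2.32 beside Hoxa13 and 2.59 at a site 6.9 kb upstream of the Hoxa3 coding start, in a coding exon of 5730596B20Rik, and in both places the HAT1-/- level was higher, at 3.24 and 3.42. Both HoxD minima, 2.82 in Hoxd3 and 2.88 upstream of Hoxd13, were lower still in HAT1-/- cells, at 2.44 and 2.05. HoxC had its lowest sites near Hoxc12 (2.68 and 3.03) and upstream of Hoxc13 (3.20 and 2.43). These levels stand for 4.0 to 9.2 normalized reads in HAT1+/+ cells, so little depth lies behind their differences.

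The genotype difference was negative over HoxA, HoxB and HoxC and positive over HoxD. HoxD lies on chromosome 2, as does Hat1 itself, whose promoter site is chr2:71388982-71389698. Any part of DNA linked to the targeted allele in the HoxD values was not tested. Of the 184 Hox sites, 109 (59.2%) were lower in HAT1-/- cells, against 55.0% of all sites, and 72 were higher, against 44.1% of all sites. By cluster, 30 of 49 sites were lower in HoxA, 44 of 63 in HoxB and 23 of 35 in HoxC, whereas in HoxD 25 of 37 were higher. The median difference was -0.10 in HoxA, -0.21 in HoxB, -0.21 in HoxC and 0.08 in HoxD, against -0.06 over all sites and -0.01, -0.04, -0.07 and -0.03 in the respective flanks. The HoxA median was -0.22 at sites of mean level 4 or more and its ratio of summed reads -0.21, and for HoxD both were 0.18. The middle 50.0% of all sites ran from -0.37 to 0.25, a range that holds all of these medians.

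**Figure D2:**
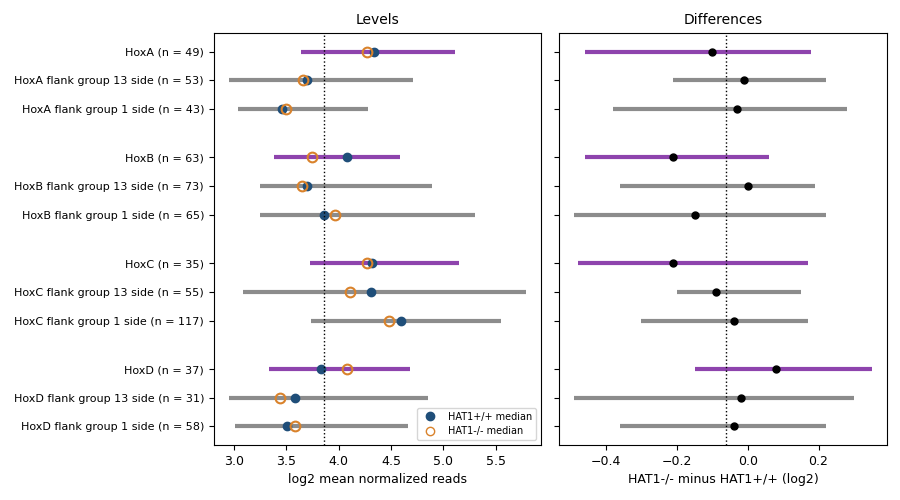
For each Hox cluster and for each of its 500 kb flanks, the left panel plots the median level (log2 mean normalized reads) in HAT1+/+ (filled) and HAT1-/- cells (open) with a bar for the middle 50.0% of sites in HAT1+/+ cells, and the right panel plots the median and the middle 50.0% of the difference (HAT1-/- minus HAT1+/+, log2), with dotted lines at the medians of all sites. HoxD is the cluster whose median difference lies above 0, at 0.08, and the medians of the 8 flanks lie between -0.15 and 0.00.

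Large differences were rare. A difference at or below -1 was found at 4 of the 184 Hox sites, against 5.11% of all sites, and a difference at or above 1 at 3, against 2.82% of all sites. The most negative was in an intron of Hoxc4, chr15:103021131-103021263, with 10.1 normalized reads in HAT1+/+ and 2.6 in HAT1-/- cells (-1.97). Next were the site between Hoxb13 and Hoxb9, chr11:96249633-96249799, with 8.0 and 2.9 reads (-1.45), and chr11:96344939-96345274 in an intron of Hoxb3, 0.9 kb from its coding start, with 22.6 and 8.7 reads (-1.38). A site in an intron of Hoxa3 reached -1.01, with 21.7 and 10.8 reads.

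On the other side, the site in an intron of Hoxa10, chr6:52233614-52233875, had 8.3 normalized reads in HAT1+/+ and 22.5 in HAT1-/- cells (1.43). An intergenic site 3.0 kb from Hoxc10, chr15:102963753-102964060, had 12.5 and 30.1 (1.27), and the coding exon of Hoxa7 had 10.1 and 20.5 (1.02). All 3 lay at groups 7 to 10. HoxD had no site past 1 in either direction, its extremes being -0.83 and 0.92. The most positive HoxB sites were at 0.90, in the last exon of Hoxb13 and in Gm53.

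A running mean of the difference over 25 consecutive sites, the window size of the study's own sliding averages, went from -0.48 to 0.30 when centred in a Hox cluster. Its lowest value was in HoxA and its highest in HoxD. None of the 184 windows went below -0.58, and 2.26% of the windows centred on all 229903 sites did.

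The sign of the difference was ordered along HoxA. On the group 1 side, up to chr6:52211627-52211898 near Hoxa6, 26 of 29 sites were lower in HAT1-/- cells, with a median of -0.41 and a range of -1.01 to 0.83. Beyond it, towards Hoxa13, 15 of 20 sites were higher and 4 lower, with a median of 0.23 and a range of -0.13 to 1.43. The first site on that side is the one between Hoxa6 and Hoxa7 whose CTCF core is printed above. Its difference was only 0.06, and the sites next to it were at -0.05 and -0.07, so the division was not sharp. A part of CTCF in it was not tested. The point of division was chosen after the values were seen, so it is a description. It could as well be placed at a neighbouring site, so its meeting with a CTCF core rests on that choice. High sites were found on both sides of it, with Hoxa5 at 6.63 on the group 1 side and a Hoxa7 start at 6.84 on the group 13 side.

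By the class of the nearest member, 31 of 44 anterior sites and 46 of 67 central sites were lower in HAT1-/- cells, and 40 of 73 posterior sites were higher. The median differences were -0.29, -0.20 and 0.05. This order was not shared by all clusters. In HoxA the posterior median was 0.28 (12 of 14 sites higher), against -0.32 for central and -0.44 for anterior sites. In HoxB all classes were negative, at -0.29, -0.21 and -0.17 from anterior to posterior, and in HoxD all were positive, at 0.08, 0.10 and 0.08. HoxC has no anterior member, and its central and posterior medians were -0.22 and 0.00. Without HoxA the anterior median was -0.13, without HoxC the central median was -0.09, and without HoxB the posterior median was 0.19. Without HoxA the posterior median was -0.01, so its sign rested on HoxA.

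Posterior sites also had lower HAT1+/+ levels, with a median of 3.81 against 4.54 for central and 4.22 for anterior sites, so classes were set side by side within a range of level. Among sites whose mean over both genotypes was 3 to 4, the median difference was 0.26 for 26 posterior sites, -0.16 for 22 central sites and -0.04 for all 80300 sites of that range. From 4 to 5 it was 0.11 for 21 posterior sites, -0.21 for 24 central sites and -0.08 for all. From 5 to 6 the order turned, with -0.18 for 11 posterior, -0.07 for 11 central sites and -0.10 for all. Sites of mean level below 3 lay outside these ranges. Most posterior sites among them were lower in HAT1-/- cells, with differences from -1.45 to 0.92. Leaving out the sites that represent the members' promoters, the posterior median was -0.01 over 57 sites, and the central and anterior medians were -0.14 and -0.29.

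**Figure D3:**
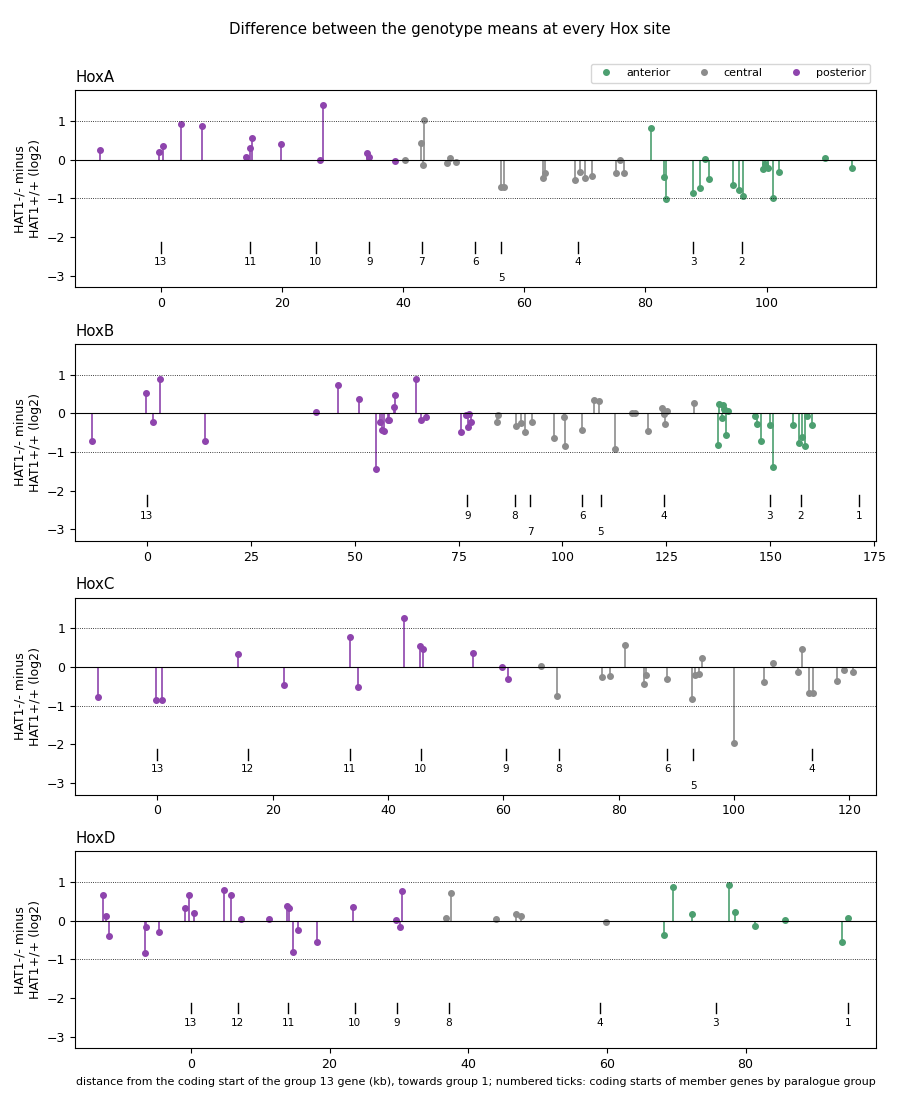
The difference of the genotype means (HAT1-/- minus HAT1+/+, log2, vertical axis) at every Hox site is plotted against the distance in kb from the coding start of the group 13 gene, coloured by the class of the nearest member, with dotted lines at 1 and -1 and numbered ticks at the coding starts. In HoxA 15 of 20 stems point up on the group 13 side and 26 of 29 point down on the group 1 side, and in HoxD 25 of 37 point up.

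For the genes themselves, a promoter site was one with its midpoint within 1 kb of an annotated transcription start, and the site with the highest mean level stood for the gene. Of the 38 members 35 had such a site (92.1%), against 73.9% of all protein-coding genes. Hoxa6, Hoxb1 and Hoxc12 had none. Hoxd3 and Hoxd4 were represented by the same site, because long transcripts of both start there, so the 35 members had 34 distinct sites. Promoters of members were weak. Their median HAT1+/+ level was 5.23, against 7.19 for protein-coding genes with a promoter site, and the median member ranked at percentile 20.1 of those genes.

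In HoxA the strongest promoter sites of groups 2 to 7 were lower in HAT1-/- cells and those of groups 9 to 13 were higher, with no site at Hoxa6. Not all promoter sites kept to this order. Others reached 1.02 at Hoxa7 and 0.06 at Hoxa3, and Hoxa10 had a promoter site at -0.01. The summed reads of the Hoxa7 promoter sites differed by 0.12. Hoxa5 was at 6.63 in HAT1+/+ and 5.93 in HAT1-/- cells (-0.70). Hoxa2 was at 4.66 and 3.88 (-0.78). Hoxa4, a neighbour of Hoxa5 with a role in the cervical spine, was at 5.90 and 5.39 (-0.51). Hoxa3 and Hoxa7, by contrast, had nearly equal levels, 5.88 and 5.81 and 6.84 and 6.81, at the most accessible of their several starts. Both of these starts lie upstream of the coding part, between Hoxa6 and Hoxa9. Among the posterior members Hoxa10, which acts in the uterus and limb, went from 5.15 to 5.56 (0.41), and Hoxa13 from 4.17 to 4.52 (0.35). Hoxa9, which works in blood progenitors and limb, and Hoxa11, needed for the forearm and kidney, were both 0.07 higher, at 5.73 and 5.80 and at 4.18 and 4.25.

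HoxB was mixed, with 6 of 9 promoter sites lower in HAT1-/- cells. Hoxb2, a hindbrain gene, was at 5.31 in HAT1+/+ and 4.70 in HAT1-/- cells (-0.61). Of the central genes Hoxb6 (5.70 and 5.28), Hoxb7 (4.95 and 4.74) and Hoxb8 (4.70 and 4.37) were lower in HAT1-/- cells, whereas Hoxb4 (4.55 and 4.70) and Hoxb5 (4.14 and 4.46) were higher. Hoxb3 and Hoxb9 were within 0.07 between the genotypes, at 4.01 and 3.94 and at 6.11 and 6.07. Hoxb13, which lies far from the rest of the cluster and acts in the tail bud and prostate, was the lowest HoxB promoter in HAT1+/+ cells and the most positive, at 3.55 and 4.07 (0.52).

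In HoxC the 4 central members were lower in HAT1-/- cells and 3 of 4 posterior members with a site were higher. Hoxc8, a thoracic gene, was at 4.53 in HAT1+/+ and 3.78 in HAT1-/- cells (-0.75), and Hoxc4 at 5.07 and 4.40 (-0.67). Hoxc5 and Hoxc6 differed less, by -0.21 and -0.23, at levels of 6.55 and 6.34 and of 7.85 and 7.62. The posterior genes Hoxc9 (4.32 and 4.69), Hoxc10 (5.23 and 5.77) and Hoxc11 (3.26 and 4.04) were higher in HAT1-/- cells, and the difference at Hoxc11, 0.78, was the most positive of any member. Hoxc13, which controls hair and nail keratins, went the other way, from 5.66 to 4.80 (-0.86), the most negative of any member, and its second promoter site differed by -0.85.

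In HoxD 9 of 9 members, at 8 distinct sites, were higher in HAT1-/- cells. At the start codon Hoxd4 was 0.03 lower (3.40 and 3.37), Hoxd3 had no site and Hoxd12 was 0.05 higher. The differences were 0.08 or less at Hoxd1 (5.35 and 5.43), Hoxd3 and Hoxd4 (5.28 and 5.33 at their shared site), Hoxd8 (6.05 and 6.11) and Hoxd9 (5.57 and 5.58). They were larger in Hoxd10, Hoxd11, Hoxd12 and Hoxd13. Hoxd10 was at 5.71 and 6.06 (0.35), and Hoxd11 at 4.26 and 4.58 (0.32). Hoxd12 (3.20 and 3.87) and Hoxd13 (4.21 and 4.88) both differed by 0.67. The largest differences of this cluster's promoters were thus at its group 13 end.

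**Figure D4:**
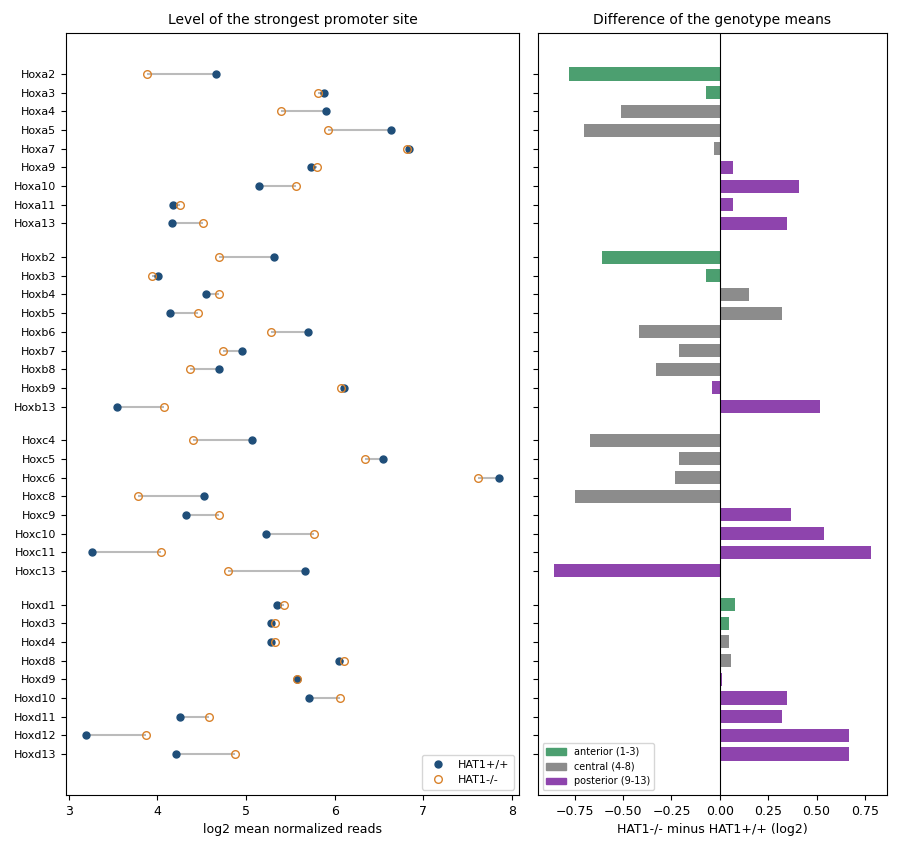
For the 35 members with a promoter site, the left panel plots the level of the strongest promoter site (log2 mean normalized reads) in HAT1+/+ (filled) and HAT1-/- cells (open), and the right panel a bar for the difference (HAT1-/- minus HAT1+/+, log2), coloured green for anterior, grey for central and purple for posterior members. Of the 15 posterior bars 13 point to higher values in HAT1-/- cells, and the exceptions are Hoxb9 (-0.04) and Hoxc13 (-0.86).

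Over the 4 clusters together, 13 of 15 posterior members were higher in HAT1-/- cells, against 33.6% of the promoter sites of all protein-coding genes. Of the central members 10 of 14 were lower, and of the anterior members 4 of 6, against 64.1% of all. The median differences were 0.35, -0.22 and -0.07 for posterior, central and anterior members, and -0.07 for all protein-coding genes. At its strongest promoter site no member reached 1 in either direction. Other promoter sites did at Hoxa10 (1.43) and Hoxa7 (1.02), and the site at the Hoxb3 start codon was at -1.38. Across the 35 members Spearman's rho between the paralogue group number and the difference was 0.54, and between the group number and the HAT1+/+ level -0.34. It was -0.13 for the HAT1-/- level. The median posterior promoter was at 4.32 in HAT1+/+ and 4.80 in HAT1-/- cells, and the median central promoter at 5.49 and 5.30. These members share their lines and in part their sites, and within clusters rho for the difference was 0.87 in HoxA (9 members), 0.71 in HoxD (9), 0.38 in HoxB (9) and 0.17 in HoxC (8).

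The level of a promoter bore on its difference as well, with a rho of -0.49 between HAT1+/+ level and difference, a pair of quantities that share a measurement. Among all protein-coding genes, 42.6% of promoter sites with a mean level of 3 to 4 were higher in HAT1-/- cells, 34.1% of those from 4 to 5 and 26.9% of those from 5 to 6. Of the posterior members 3 of 3, 5 of 5 and 5 of 6 in these ranges were higher. Of the anterior and central members 0 of 1, 2 of 7 and 3 of 7 were higher. Their medians were -0.33 from 4 to 5 and -0.07 from 5 to 6, against -0.15 and -0.17 for all protein-coding genes.

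The choice of start mattered for some genes. When the promoter was placed at the start codon in place of the transcription starts, an alternative chosen after the data were seen, 34 members had a site, and 11 of 15 posterior members were higher, with a median of 0.07. Hoxc9 was then lower, at 5.39 and 5.07, Hoxa10 was at 4.35 and 4.34, and Hoxd12 at 3.24 and 3.29. The median of the 5 anterior members was -0.83, with Hoxa3 at 6.91 and 6.05, Hoxb3 at 4.50 and 3.12 and Hoxb2 at 5.46 and 4.63, and Hoxd3 had no site. The central members had a median of -0.27, with 10 of 14 lower, and Hoxa7 was then higher in HAT1-/- cells, at 4.52 and 4.95.

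The Hox sites were also unusual in sequence. Their median GC content was 58.8%, against 50.1% over all sites and 51.5% in the flanks, and their median CpG content was 0.62 of that expected, against 0.20 over all sites. Of the 184 sites 96 (52.2%) were CpG-rich, against 8.29% of all sites and 12.7% of flank sites. CpG-rich sites elsewhere were mostly strong, with a median HAT1+/+ level of 6.27, whereas the CpG-rich Hox sites were at 4.29. In the difference the CpG-rich and the other Hox sites were at -0.08 and -0.15.

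The letters TGANTCA, which AP-1 factors bind and which are common in the open chromatin of fibroblasts, were in 14 Hox sites (7.61%), against 28.4% of all sites and 25.1% of flank sites. Among CpG-rich sites the shares were 5.21% in Hox sites and 9.90% over all, and among the other sites 10.2% and 30.1%, so the lower share was seen at both CpG contents. TGATTNAT, the letters bound by HOX and PBX proteins together, were in 9 Hox sites (4.89%, against 5.49% of all), and TAATTA, the homeodomain core, in 6 (3.26%, against 3.73%). By annotation, 56 Hox sites touched a coding exon, 42 another exon, 54 lay in introns and 32 were intergenic, with median differences of -0.02, -0.11, -0.18 and -0.11.

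Of 43 genes that act with or on the Hox genes, 39 had a promoter site, none with a difference of 1 or more in either direction, and their median was -0.04. The TALE partners of HOX proteins were lower in 8 of 9, with a median of -0.10, where 64.1% of all protein-coding promoter sites were lower, with a median of -0.07. The largest difference was at Meis3 (7.38 and 6.92), and the exception was Meis1 (7.51 and 7.73). The 13 Polycomb genes had a median of -0.02, with Ezh2, the H3K27 methyltransferase, at 8.23 and 8.22, and the 5 trithorax genes with a site were at 0.00. Of the 7 retinoic acid and caudal inputs with a site, 4 were higher and 3 lower, with a median of 0.15. The retinoic acid synthase gene Aldh1a2 was at 4.68 and 5.03 at its strongest site, but its summed reads differed by -0.02. The caudal gene Cdx2 was at 4.73 and 4.26. Of the 4 boundary genes 3 were higher, with a median of 0.07, and the exception was Ctcf, at 8.20 and 8.15. The median HAT1+/+ level of the 39 was 8.01, far above the 5.23 of the Hox promoters.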

How the data were processed

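ATAC-Seq was performed on 3 HAT1+/+ and 3 HAT1-/- pMEF lines. According to the methods and the submitters' processing notes, the authors aligned reads to mm10 with bowtie2, called peaks with MACS2 and ran DiffBind 2.14.0. The read normalization is not given in the sources used here. The levels are the authors' deposited log2 mean normalized reads per genotype. The table also holds the authors' overall mean level, fold change, p-value and FDR, which were not used. Differences were recomputed from the 2 means, deposited to 2 decimals.

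The build was checked against GRCm38, where 0 sites passed a chromosome end. Genes came from GENCODE vM21, and promoters and miRNAs from RefSeq. GC, CpG and motifs (both strands) were read from the sites' reference sequence. The work was done in Python (3.11.15) with pandas (2.3.3) and numpy (2.4.6), rank correlations came from scipy (1.17.1) and plots from matplotlib (3.10.9). The median differences of windows and flanks were tested on simulated HAT1-/- levels at the real site positions, with a known shift in HoxC.

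The members, lists and tests were chosen with earlier results of these data known. Chosen for naming were every member and, per cluster, the 2 highest and 2 lowest HAT1+/+ sites and the 2 most negative and 2 most positive differences. Some sites so chosen are not described above. Among them are chr6:52159267-52159486 in HoxA (-0.99) and, in HoxD, chr2:74682936-74683110 (-0.80) and chr2:74737782-74738032 (0.87). Only genotype means were used, so no test, SD or interval is given, and the number of normalized reads per site limits the precision.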

Additional observations from a re-analysis of the deposited data

How the results depend on the processing

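Of the recomputed values 33 moved without changing sign and 8 changed sign, of which 2 were the posterior sites' median, 0.05 as reported and -0.01 both without HoxA and without the members' promoter sites. No paired analysis was possible because the table gives genotype means, and for the same reason no line could be left out. With a fold of 0.58 in place of 1, 9, 12, 8 and 2 sites of HoxA, HoxB, HoxC and HoxD were lower (1, 2, 1 and 0 at 1) and 5, 3, 3 and 8 higher (2, 0, 1 and 0). The share of all sites past 0.58 was not computed, so these counts show only the effect of the cutoff. The HoxA median of -0.10 was -0.22 at sites of mean level 4 or more and -0.21 from summed reads. With flanks of 250 kb, HoxA stood above them by 0.95 and 0.86 (HAT1+/+ and HAT1-/-), HoxB by 0.13 in HAT1-/- cells and HoxC by 0.08 and 0.15, the last 3 reversed. With flanks of 1 Mb the values were 0.56 for HoxA in HAT1+/+ cells, -0.03 and 0.04 (reversed) for HoxC, and 0.11 and 0.42 for HoxD. Per kb of site width they were 0.68 and 0.49 for HoxA, 0.15 and 0.01 (reversed) for HoxB, -0.07 for HoxC in HAT1+/+ cells, and 0.01 and 0.19 for HoxD. In windows trimmed to the member genes the HAT1+/+ values were 0.63, -0.07 and -0.02 (reversed) for HoxA, HoxC and HoxD. The anterior members' median of -0.07 was -0.36 with promoters of 3 kb, -0.18 from summed reads and -0.83 at the start codon, where the posterior median was 0.07. Without HoxA the anterior sites had -0.13 and the posterior sites -0.01, without HoxC the central sites -0.09 and without HoxB the posterior sites 0.19. In the central 200 bp, the CTCF core was in 5.43% of Hox sites and 5.46% of all, and TAATTA in 1.09% and 2.44%. The cause of these shifts was not tested. The depth of each line is unknown, and the lowest sites rest on few reads.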

Other observations

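The clusters also hold 6 microRNA hairpins, 5 of them in families that recur between clusters and 1, Mir615, in HoxC. Mir10a in HoxB and Mir10b in HoxD lie next to group 4, and Mir196b in HoxA, Mir196a-1 in HoxB and Mir196a-2 in HoxC lie next to groups 9 and 10. The mature sequences from RefSeq are printed with the seed, bases 2 to 8, in capitals, since the seed is what members of a family share.

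miR-10a-5p: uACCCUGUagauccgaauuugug
miR-10b-5p: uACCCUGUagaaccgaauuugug
miR-196a-5p: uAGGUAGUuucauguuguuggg
miR-196b-5p: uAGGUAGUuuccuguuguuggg

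The site nearest to each hairpin lay 0.1 to 3.6 kb away. Beside Mir10a it was the Hoxb4 promoter site (4.55 in HAT1+/+ and 4.70 in HAT1-/- cells), and beside Mir10b a site in the coding exon of Hoxd4 (3.40 and 3.37). The sites nearest to Mir196b (3.67 and 3.85) and Mir196a-2 (4.32 and 4.69) were higher in HAT1-/- cells, and that of Mir196a-1 was 0.08 lower (4.89 and 4.81). Mir615, which lies inside Hoxc5, had a site at 3.96 and 3.78.

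Evx genes lie beyond group 13 in HoxA and HoxD. Evx1 had a promoter site at 3.74 and 3.59, and Evx2 had none within 1 kb of a start, while 2 sites in its coding exons were at 3.83 and 4.50 and at 4.34 and 4.45 and an intronic site at 2.94 and 2.55.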
